A study of Homo sapiens with 12 samples.

Results

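Polysome-poor 3′ ends are poly(A) sites whose reads were scarce in polysomal RNA relative to cytoplasmic RNA of wild-type HEK293T cells, a human embryonic kidney line. They numbered 382 of the 4709 sites on chromosomes 1 to 22 and X with at least 50 reads in each of 4 fraction libraries, or 8.11%, and the fraction table lists 189010 sites in all. Sites were chosen by log2 of wild-type polysome over wild-type cytoplasm, from reads scaled to each library's total (RPM) and minus the median of the 4709 sites, at or below -0.8. This value is called the centred ratio below, and the other 4327 sites are the sites it is set against. The wild-type ratio therefore chose the sites and is given as a description only. Sites on the mitochondrial genome were left out, so "nuclear" refers to the chromosomes and not to RNA measured in a nucleus.

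The study asked how STAU1, a protein that binds double-stranded RNA, relates to alternative 3′ ends. Counts came from 3'READS+, which sequences the last stretch of polyadenylated RNA and so assigns a read to the 3′ end of an isoform. The fraction libraries were polysomal and cytoplasmic poly(A)+ RNA of STAU1-knockout cells (clone C8, made by paired nicking with the Cas9 nickase) and of the isogenic control C9, called wild type, with 1 library each, so no difference between fractions or genotypes has a replicate check and each genotype is a single clone. The pull-downs were anti-FLAG immunoprecipitations (IP) and their inputs, total poly(A)+ RNA of the lysate, from the knockout clone transiently expressing STAU1-FLAG or, as the control, FLAG-GFP, with 2 replicates in each of 4 groups. All pull-down cells thus lacked endogenous STAU1, and in the STAU1 arm the tagged protein was put back. The labels do not say whether replicates came from separate cultures, so the p-values rest on the spread of these libraries alone, which may be technical. All RNA was from bulk cells, where a lower level in each cell and fewer cells with the RNA cannot be told apart. Libraries held 3483937 (knockout polysome), 3232580 (knockout cytoplasm), 2799226 (wild-type polysome) and 2904902 reads (wild-type cytoplasm). The GFP IP libraries held 1291888 and 1245270 reads, against 5567893 to 9655646 in the other 6 pull-down and input libraries.

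As background, a poly(A) site is where the cell cuts a nascent transcript and adds its tail. Many genes have several such sites, and their use changes the 3′ untranslated region and with it the signals that set stability, location and translation. Polysomes are mRNAs that carry several ribosomes, so RNA in them is mostly under translation, whereas noncoding RNA, mRNA with long tracts that block ribosomes, very short reading frames and mRNA stored outside polysomes are usually scarce there. STAU1 is known to bind paired regions in 3′ untranslated regions and has been tied to mRNA transport, translation and decay. Sites are named here by chromosome, strand and position in hg19, and no gene was assigned to them.

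The polysome-poor sites reached far below the threshold. Their median centred ratio in wild type was -1.07 (quartiles -1.39 and -0.92), and the lowest was -3.10. At or below -1.5 there were 76 sites and at or below -2 there were 15. For 182 of the 382 the 95% exact (Clopper-Pearson) counting interval, which covers counting error only since PCR reads need not be separate molecules, lay wholly below the threshold. The 3 sites nearest to the threshold inside it, at chr7:75696814 (plus strand), chr5:177638181 (plus) and chr17:76791735 (minus), and the 3 nearest outside it, at chr5:68473581 (plus), chr22:44347343 (plus) and chr14:21678715 (minus), all had a wild-type ratio of -0.80, so the border divides sites that counting cannot tell apart. The 382 sites held 4.21% of the reads at the 4709 sites in knockout polysomes and 8.23% in knockout cytoplasm, against 3.89% in wild-type polysomes and 8.89% in wild-type cytoplasm. Their median count was 151.5 reads in knockout polysomes, 243.5 in knockout cytoplasm, 111.5 in wild-type polysomes and 231 in wild-type cytoplasm.

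The sites were spread over the genome and over levels of expression. Each of the 23 chromosomes held some, from 4.50% of its sites on chromosome 9 (9 of 200) to 12.5% on chromosome 18 (6 of 48), and 187 of the 382 (49%) lay on the plus strand, against 2196 of the 4327 other sites (50.8%). Their mean level over the 4 libraries had a median of 61.2 RPM, against 58.1 RPM at the other sites. Sorted by that level into 4 expression classes of equal size, 65 of 1178 sites in the lowest class were polysome-poor, then 118 of 1177, 103 of 1177 and 96 of 1177 in the highest. Of the 3106 sites with at least 100 reads in both cytoplasmic libraries, 23 had under 50 reads in a polysome library, and the minimum of reads kept these out.

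The site with the lowest ratio among those with the minimum of reads, at chr5:127593602 on the minus strand, had 86 reads in knockout polysomes and 420 in knockout cytoplasm. In wild type it had 71 in polysomes and 532 in cytoplasm. Its centred ratio was -2.61 in the knockout (95% counting interval -2.96 to -2.27) and -3.10 in wild type (-3.47 to -2.74). The site at chr11:61066926 (minus) followed with 109, 509, 55 and 393 reads in the same order of libraries, and ratios of -2.55 in the knockout and -3.03 in wild type. At chr9:35056561 (minus) the counts were 480 in knockout polysomes and 2704 in knockout cytoplasm, against 335 in wild-type polysomes and 2225 in wild-type cytoplasm, with ratios of -2.82 and -2.92. All 3 were low in both clones. The other 7 of the 10 lowest sites had ratios between -2.78 and -1.87 in the knockout and between -2.56 and -2.17 in wild type.

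Among the sites with the most reads, chr2:232319460 (minus) had 2202 reads in knockout polysomes and 6657 in knockout cytoplasm, against 1627 in wild-type polysomes and 6321 in wild-type cytoplasm. Its ratio was -1.92 in the knockout and -2.15 in wild type, both with intervals under 0.2 wide. The most abundant polysome-poor site, chr3:23961042 (plus), had 5061 polysomal and 6539 cytoplasmic reads in the knockout, against 4573 and 7410 in wild type, with ratios of -0.69 and -0.89. At chr19:8553994 (plus) the counts were 1384 and 3713 in the knockout, against 955 and 3147 in wild type, with ratios of -1.75 and -1.91. The other 7 of the 10 most abundant sites had ratios between -2.78 and -0.59 in the knockout and between -2.17 and -0.80 in wild type. At these depths the counting error is small beside the ratios, and the spread that remains unknown is that between libraries.

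Most polysome-poor sites were also low in the knockout, whose libraries the ratio rule did not use apart from the minimum of reads. The median centred ratio in the knockout was -0.86 (quartiles -1.25 and -0.55, range -2.82 to 0.35), against 0.04 at the other sites. At or below -0.8 in the knockout were 208 of the 382 (54.5%), against 116 of the 4327 others (2.68%), and over all 4709 sites that share was 6.88%. Below 0 in the knockout were 373 of the 382 (97.6%), against 1981 of the 4327 others (45.8%). For 338 of the 382 the whole counting interval was below 0, a count that was not made for the other sites. Across the 4709 sites the ratios of the clones had a Pearson correlation of 0.753, and across the 382 of 0.691. These correlations describe sites that share 4 libraries. The SD over all sites was 0.52 for the knockout ratio, 0.57 for the wild-type ratio and 0.39 for their difference.

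**Figure D1:**
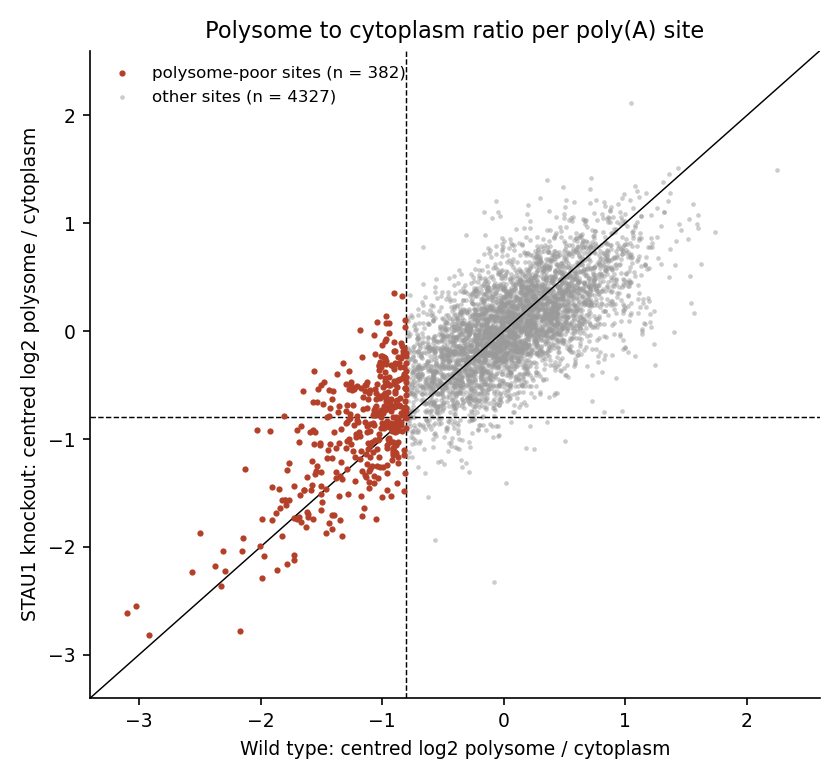
Centred log2 ratio of polysome to cytoplasm in the STAU1 knockout (vertical) against wild type (horizontal), 1 point per poly(A) site, with the 382 polysome-poor sites in red and the 4327 other sites in grey. The solid line marks equal values and the dashed lines the threshold of -0.8, and 208 red points lie at or below the threshold on both axes.

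How often a site was low again depended on its level and on how low it was in wild type. Of the 76 sites at or below -1.5 in wild type, 69 were at or below -0.8 in the knockout, against 139 of the 306 sites between -1.5 and -0.8. By expression class, from low to high, 20 of 65, 63 of 118, 66 of 103 and 59 of 96 polysome-poor sites were low in the knockout, whereas 36 of 1113, 39 of 1059, 25 of 1074 and 16 of 1081 other sites were. The polysome-poor sites thus were low in the knockout more often than other sites in each class, and least often in the lowest, where counts are smallest.

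The knockout ratio was higher than the wild-type ratio at 283 of the 382 sites, with a median difference of 0.26, against -0.03 at the other sites. The wild-type value chose the sites, so a difference toward 0 is built in and was not tested. The mirror choice, by the knockout ratio, builds in a shift the other way. Its value does not give the size of the built-in part at the polysome-poor sites. The 324 sites at or below -0.8 in the knockout had a median knockout minus wild-type difference of -0.17. At the 298 polysome-rich sites, at or above 0.8 in wild type, it was -0.40. In the polysome-poor sites the centred log2 of knockout over wild type had a median of -0.13 in cytoplasm and 0.12 in polysomes. The 174 sites that were not low in the knockout had a median ratio of -0.53 there, with knockout over wild type at -0.35 in cytoplasm and 0.20 in polysomes, whereas the 208 low in both had 0.02 and 0.07. These sets were split by the knockout ratio itself. A gap between them in the change of polysomes relative to cytoplasm is therefore built in as well and was not tested.

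Single sites differed between the clones in both directions. With at least 100 reads in each library, the highest difference was at chr9:100778222 (plus), which had 184 polysomal and 190 cytoplasmic reads in the knockout, against 153 and 395 in wild type. Its ratio was -0.37 in the knockout (95% counting interval -0.67 to -0.07) and -1.56 in wild type (-1.84 to -1.29). The next sites were chr12:53873578 (plus) with 0.01 in the knockout and -1.18 in wild type, chr1:2335188 (plus) with 0.32 and -0.84, chr17:79845719 (minus) with -0.30 and -1.32, and chr1:180257366 (minus) with -0.53 and -1.53. In all 5 the counting intervals of the clones did not overlap, which is the direction that the choice of sites favours.

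The opposite direction goes against that built-in shift. At chr15:75867352 (minus) there were 688 polysomal and 3768 cytoplasmic reads in the knockout, against 473 and 1866 in wild type, giving ratios of -2.78 (-2.90 to -2.66) and -2.17 (-2.32 to -2.02). At chr11:65193996 (plus) the counts were 221 and 591 in the knockout, against 104 and 189 in wild type, and the ratios were -1.74 (-1.97 to -1.52) and -1.05 (-1.41 to -0.70). At chr6:4062139 (plus) they were -1.48 in the knockout and -0.82 in wild type, at chr17:4442201 (minus) -1.53 and -0.93, and at chr6:7586805 (plus) -1.90 and -1.33. Of these sites, only chr6:7586805 had overlapping counting intervals, -2.17 to -1.63 in the knockout and -1.66 to -1.01 in wild type. The first 2 of these sites had more cytoplasmic reads in the knockout by a larger factor than polysomal reads. With 1 library per fraction and clone, a difference between clones cannot be told apart from one between libraries.

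A nearby 3′ end on the same strand, which may end another isoform of the same transcript, tended to be low too. The nearest other site with 50 reads in each fraction library, 100 to 5000 nt away on the strand, existed for 56 polysome-poor sites and for 875 other sites. The neighbours of polysome-poor sites had a median ratio of -0.51 in the knockout and -0.59 in wild type, whereas those of other sites had 0.05 in each. Below 0 in wild type were 41 of 56 neighbours, against 407 of 875. The neighbour was itself polysome-poor in 21 of 56 cases (37.5%), against 34 of 875 (3.89%) and 8.11% over all sites. Mutual neighbours are counted from both ends, so the 21 cases come from fewer places, all within the 13 runs given below. The neighbour lay at a median distance of 442 nt, against 694 nt for other sites. Downstream neighbours (31) and upstream neighbours (25) had medians of -0.62 and -0.57 in wild type.

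The neighbours that were not themselves polysome-poor were lower as well. The 35 such neighbours of polysome-poor sites had a median of -0.18 in the knockout and -0.22 in wild type, against 0.07 and 0.08 for the 841 such neighbours of other sites. When all other listed sites 100 to 5000 nt away on the strand were summed, a setting chosen after seeing the data, 68 polysome-poor sites had enough reads. Their neighbourhoods had a median of -0.46 in the knockout and -0.55 in wild type, and 25 of the 68 were at or below -0.8 in wild type, against 32 of 1107 for other sites. Sites on the opposite strand within 5000 nt were close to 0. The 35 that lay near a polysome-poor site had a median of -0.05 in the knockout and 0.00 in wild type, and none of the 35 was polysome-poor, against 35 of 365 (9.59%) near other sites. The Pearson correlation of a site's wild-type ratio with its neighbour's was 0.356 over 931 pairs on the same strand and -0.047 over 400 pairs on opposite strands, a description in which many pairs are counted from both ends.

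**Figure D2:**
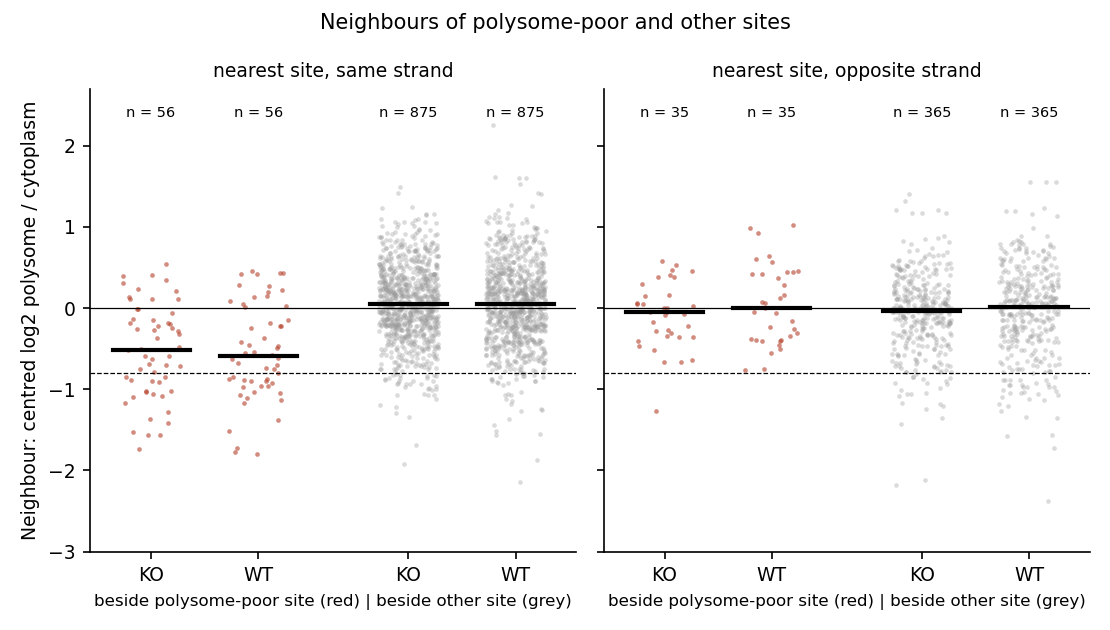
Centred log2 ratio of polysome to cytoplasm of the nearest other site on the same strand (left) and on the opposite strand (right), in the knockout (KO) and wild type (WT), beside polysome-poor sites (red) and other sites (grey). Points are sites, bars are medians, and the dashed line is the threshold of -0.8. The same-strand neighbours of polysome-poor sites have medians of -0.51 in the knockout and -0.59 in wild type, and the medians of the other 3 sets lie between -0.05 and 0.05.

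Polysome-poor sites lay together in 13 runs of 2 or more with gaps of at most 5000 nt, which held 27 of the 382. The run with the most sites was on the minus strand of chromosome 13, between 45911007 and 45911313, where 3 sites had ratios from -1.03 to -0.86 in the knockout and from -1.10 to -0.87 in wild type. At chr19:11172741-11172945 on the plus strand, 2 sites 204 nt apart had ratios from -1.74 to -1.56 in the knockout and from -1.80 to -1.73 in wild type. Both runs were low throughout and in both clones.

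Elsewhere a polysome-poor site stood beside a site that was not. The 5 widest gaps, among neighbours with at least 100 reads in each library, are given here. At chr16:70286294 (minus) there were 188 polysomal and 484 cytoplasmic reads in the knockout, against 102 and 327 in wild type. The site 2160 nt downstream, chr16:70284134, had 276 and 151 in the knockout, against 209 and 137 in wild type. The ratios were thus -1.69 and 0.55 in the knockout, and -1.87 and 0.42 in wild type, at the polysome-poor site and its neighbour, and the order of the sites was the same in both clones.

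At chr2:232319460 (minus), described above, the neighbour 159 nt upstream had 1037 polysomal and 966 cytoplasmic reads in the knockout, against 801 and 796 in wild type. Its ratio was -0.22 in the knockout and -0.18 in wild type, against -1.92 and -2.15 at the polysome-poor site. The gap of 1.70 in the knockout and 1.97 in wild type is far wider than the counting intervals. At chr10:124923532 (plus) the ratio was -0.47 in the knockout and -1.25 in wild type, and 1347 nt downstream it was 0.11 and 0.44. For chr9:100778222 and chr1:2335188 the gap was 1.41 and 1.27 in wild type and 0.24 and -0.33 in the knockout, where the order of the sites was not kept at chr1:2335188.

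In the knockout clone the polysome-poor sites were higher in total lysate than in cytoplasm, relative to other sites. The lysates were of that clone transiently expressing STAU1-FLAG or FLAG-GFP, and the cytoplasm was of the clone itself. What this difference between the cells adds was not tested. The levels are set across tables that were made separately. For sites listed at the same position in both tables, the level in the 4 input libraries was divided by that in knockout cytoplasm, as log2 of RPM minus the median over the matched sites. The 333 polysome-poor sites had a median of 0.46 (quartiles -0.26 and 1.13), against 0.02 at the other sites and -0.38 at polysome-rich sites. Above 0 were 224 of the 333, against 1924 of 3781. Each of the 4 input libraries gave this, with polysome-poor medians of 0.43 and 0.50 in the STAU1 inputs and 0.40 and 0.55 in the GFP inputs, against 0.02 to 0.04 at the other sites. By expression class the medians were 0.73, 0.50, 0.58 and 0.21 at polysome-poor sites, against 0.07, -0.05, 0.02 and -0.01. By wild-type ratio the median was 0.31 at or below -1.5 and 0.50 between -1.5 and -0.8. Other sites between -0.8 and -0.4 had 0.31 and those between -0.4 and 0 had 0.12, so values above 0 were not limited to polysome-poor sites. Knockout cytoplasm is also the divisor of the knockout ratio and had a median centred log2 of -0.16 over wild-type cytoplasm at these 333 sites, and the part of this in the lysate value was not tested. Over knockout polysomes the lysate value was 1.36, against -0.05 at the other sites. Apart from centring, this is the value over cytoplasm less the knockout ratio, so it largely repeats the low knockout ratio. Within the 333 sites the knockout ratio and the lysate value over cytoplasm had a Pearson correlation of 0.0766.

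**Figure D3:**
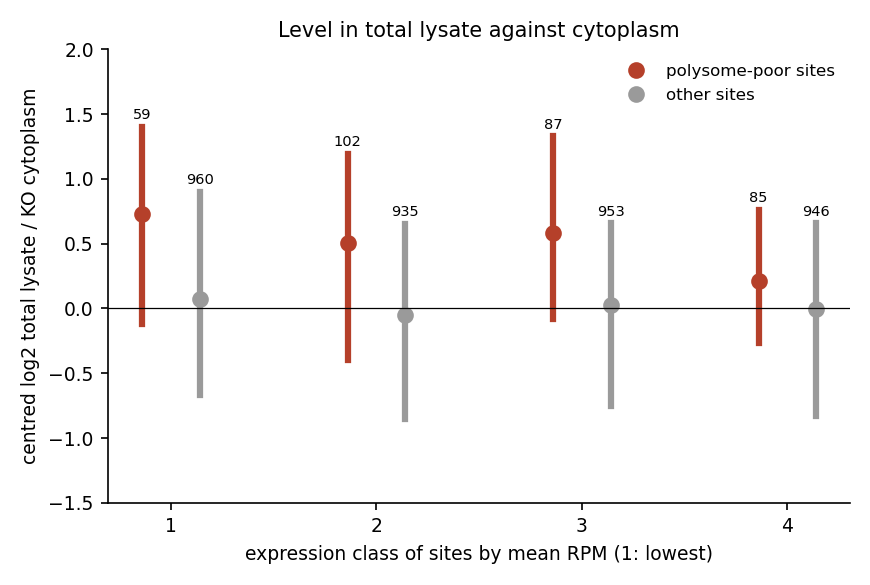
Centred log2 of total lysate (mean over the 4 input libraries) over knockout cytoplasm by expression class, for polysome-poor sites (red) and other sites (grey) listed at the same position in both tables. Points are medians, bars run from the lower to the upper quartile, and numbers are sites. The red medians of 0.73, 0.50, 0.58 and 0.21 lie above the grey ones, which run from -0.05 to 0.07.

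In the FLAG-GFP control pull-down the polysome-poor sites had higher values than other sites. Of the 382, 370 had a pull-down site within 24 nt (333 at the same position) and 369 were tested with edgeR's quasi-likelihood test over 33744 sites, with a Benjamini-Hochberg adjusted p under 0.05 as the call. In GFP IP over GFP input 67 of 369 were called higher (18.2%) and 36 lower (9.76%), against 163 (3.82%) and 962 (22.5%) of the 4267 other matched sites. Over all 4636 matched sites the shares were 4.96% and 21.5%, and over all sites tested 2.11% and 3.99%. The median log2 change was -0.04 at polysome-poor sites and -0.53 at the others, and at polysome-rich sites -1.11, where 2 of 293 were called higher and 96 lower. Against the mean of both inputs, the GFP IP replicates had medians of -0.02 and -0.01 at polysome-poor sites, against -0.54 and -0.53 at the others.

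The GFP difference was present at each level of expression. From the lowest expression class to the highest, 8 of 65, 24 of 113, 19 of 98 and 16 of 93 polysome-poor sites were called higher, against 38 of 1092, 45 of 1041, 43 of 1064 and 37 of 1070 others. The medians were -0.02, -0.03, -0.05 and -0.06, against -0.43, -0.47, -0.51 and -0.71. Of the sites low in both clones, 32 of 202 were called higher and 23 lower, and of those not low in the knockout 35 of 167 and 13. The counts rest on few libraries, and the GFP IP libraries were the shallowest of the 8, whose part in the result was not tested. Called higher were 32 and 29 of the polysome-poor sites when GFP IP replicate 1 or 2 was left out, and 30 when the first GFP input was. Called lower were 20 when GFP IP replicate 1 was left out, and 61 and 58 when the first or the second STAU1 input was. Without a filter on low counts the calls went the other way, with 24 higher and 79 lower and a median of -0.48, against 0.791% higher and 29.9% lower at the other sites, whose median was -0.97. Scaling to library totals, in place of TMM, gave 105 higher and 20 lower, and moved the median of all tested sites to 0.13, against -0.16 with TMM. The gap of 0.49 between polysome-poor and other medians lay between 0.41 and 0.61 when any library was left out.

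The highest GFP change was at chr5:149779856 (plus). It had 501 and 580 CPM (counts scaled by TMM and library size) in GFP IP, against 44.6 and 62.9 in GFP input, a log2 change of 3.33 ± 0.24 (SE, edgeR adjusted p = 2.61e-07). In STAU1 IP it had 201 and 146 CPM, against 83.0 and 79.1 in STAU1 input, a log2 change of 1.10 ± 0.22 (edgeR adjusted p = 0.00439). Both pull-downs held more of it than their inputs, and the GFP pull-down the most. At chr19:4039383 (plus) GFP IP held 207 and 230 CPM, against 35.8 and 45.6 in GFP input, and STAU1 IP 208 and 188 CPM, against 56.7 and 59.6 in STAU1 input, with no overlap in either pair. At chr19:10942579 (plus) the GFP change was 2.13, at chr8:104455200 (plus) 1.98 and at chr19:10370728 (plus) 1.90. The call at chr8:104455200, from 34.6 and 35.7 CPM in GFP IP against 9.23 and 8.60 in GFP input, was lost when any of the 4 GFP libraries was left out.

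Among the 5 called sites with the lowest GFP changes, read depth varied. At chr13:45911103 (minus), in the run of 3 sites above, GFP IP held 4 and 2 reads, 2.76 and 1.46 CPM, against 16.3 and 22.6 CPM in GFP input. At chr6:86386802 (minus) GFP IP held 31.1 and 31.3 CPM, against 125 and 184 CPM in GFP input, and STAU1 IP 12.2 and 24.4 CPM, against 127 and 144 CPM in STAU1 input. The log2 changes there were -2.31 (edgeR adjusted p = 0.000127) for GFP and -2.89 (edgeR adjusted p = 9.61e-06) for STAU1. At chr13:45911313 (minus), in the same run, they were -2.11 and -2.76, and at chr8:48890483 and chr1:2335188 the GFP changes were -2.15 and -2.47. The last of these calls was lost with library totals or when the first GFP input was left out.

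In the STAU1 pull-down the polysome-poor sites were called higher at a total share near that of other sites. How the shares called higher and lower compared with those of other sites depended on expression. Called higher were 38 of 369 (10.3%) and lower 39 (10.6%), against 365 (8.55%) and 598 (14%) of the 4267 others. Over all matched sites the shares were 8.69% and 13.7%, and over all sites tested 3.06% and 2.99%. The median log2 change was -0.08, against -0.19 at the others and -0.47 at polysome-rich sites. The number called higher was 17 when the first STAU1 IP was left out, and also 17 when the first STAU1 input was. Library totals gave 65 higher and 36 lower, and no filter on low counts 15 and 43. From the lowest expression class to the highest, 8 of 65, 15 of 113, 9 of 98 and 6 of 93 polysome-poor sites were called higher, against 76 of 1092, 81 of 1041, 115 of 1064 and 93 of 1070 others. Called lower were 1, 7, 16 and 15 polysome-poor sites in these classes, against 64, 84, 122 and 328 others. In the third class the share called lower was thus above that of other sites (16.3% against 11.5%), and in the highest class below it (16.1% against 30.7%). The share called higher was above that of other sites in the lowest class (12.3% against 6.96%) and the second (13.3% against 7.78%). It was below it in the third (9.18% against 10.8%) and the highest (6.45% against 8.69%). Among sites low in both clones, 14 of 202 were called higher and 28 lower, and among those not low in the knockout 24 of 167 and 11. Higher in both pull-downs were 21 polysome-poor sites (5.69%) and lower in both 18 (4.88%), against 77 (1.80%) and 413 (9.68%) of the others.

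The highest STAU1 change was at chr4:2939841 (minus), which had 142 and 158 CPM in STAU1 IP, against 23.1 and 22.5 CPM in STAU1 input. Its log2 change was 2.72 ± 0.26 (SE, edgeR adjusted p = 3.43e-06). GFP IP held 27.6 and 32.1 CPM, against 34.8 and 29.3 CPM in GFP input, so the high libraries were those of the STAU1 IP alone. The changes at chr1:19586620 (plus), chr19:56088899 (minus), chr19:4039383 (plus) and chr17:76791735 (minus) were 1.88, 1.85, 1.77 and 1.49. The GFP changes of the last 3 were 1.57, 2.42 and 1.25 and were called too, whereas that of chr1:19586620 was -0.20.

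Among the lowest STAU1 changes, chr14:50050303 (minus) had 62.4 and 65.9 CPM in STAU1 IP, against 349 and 423 CPM in STAU1 input, and 133 and 156 CPM in GFP IP, against 345 and 373 CPM in GFP input. Its log2 changes were -2.59 (edgeR adjusted p = 3.89e-07) for STAU1 and -1.31 (edgeR adjusted p = 0.000361) for GFP. At chr7:10973084 (minus) STAU1 IP held 18.4 and 13.7 CPM, against 85.6 and 110 CPM in STAU1 input, a change of -2.61. Both sites were low in STAU1 IP without overlap of the groups. The change of -2.42 at chr8:67834224 (minus) came from 2.47 and 2.47 CPM in STAU1 IP, against 19.6 and 7.16 CPM in STAU1 input, and its call was lost when either STAU1 IP or the first STAU1 input was left out.

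The double ratio, STAU1 IP over input divided by GFP IP over input, tests the difference between the pull-downs itself. Called higher were 6 polysome-poor sites (1.63%) and lower 13 (3.52%), against 132 (3.09%) and 8 (0.187%) of the 4267 others. Over all matched sites the shares were 2.98% and 0.453%, and over all sites tested 0.530% and 0.157%. The polysome-poor sites thus made up 13 of the 21 matched sites called lower. The median log2 double ratio was -0.08, against 0.32 at the others and 0.65 at polysome-rich sites. Of the 13 called lower, 9 were called higher in the GFP pull-down and 4 lower in the STAU1 pull-down. Of the 6 called higher, 4 were called higher in the STAU1 pull-down and 3 lower in the GFP pull-down. The counts are small and moved with single libraries. Called lower were 8 and 7 when the first or the second GFP IP was left out, 6 and 22 for the GFP inputs in the same order, and 7 for the second STAU1 IP. Called higher were 11 when the first GFP input was left out and 23 when the second STAU1 input was. Without a filter on low counts 10 were called higher and 6 lower, and the median was 0.14, against 0.54 at the others, so the direction within the polysome-poor sites turned. DESeq2's size factors in edgeR gave 5 higher and 21 lower, library totals 4 and 21, and DESeq2 17 and 58.

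The GFP change and the double ratio ran with the polysome ratio over the whole range of sites, and the STAU1 change did so less evenly. From the sites at or below -1.5 to those above 0.8, in 7 bands, the median GFP change was 0.03, -0.07, -0.09, -0.38, -0.61, -0.94 and -1.11. The median STAU1 change was -0.18, -0.06, -0.03, -0.11, -0.27, -0.29 and -0.47, and the double ratio -0.33, -0.06, 0.05, 0.25, 0.35, 0.53 and 0.65. The sites between -0.8 and -0.4 had nearly the GFP value of the polysome-poor sites, so no step stood at the threshold. Over the 4636 matched sites the Pearson correlation of the wild-type ratio was -0.344 with the GFP change, -0.142 with the STAU1 change and 0.228 with the double ratio, and with the knockout ratio -0.229, -0.0696 and 0.175. Among the 369 polysome-poor sites the wild-type values were -0.0698, 0.0594 and 0.133. These values describe sites that share 8 pull-down libraries, and the STAU1 and GFP arms share 1 scaling.

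**Figure D4:**
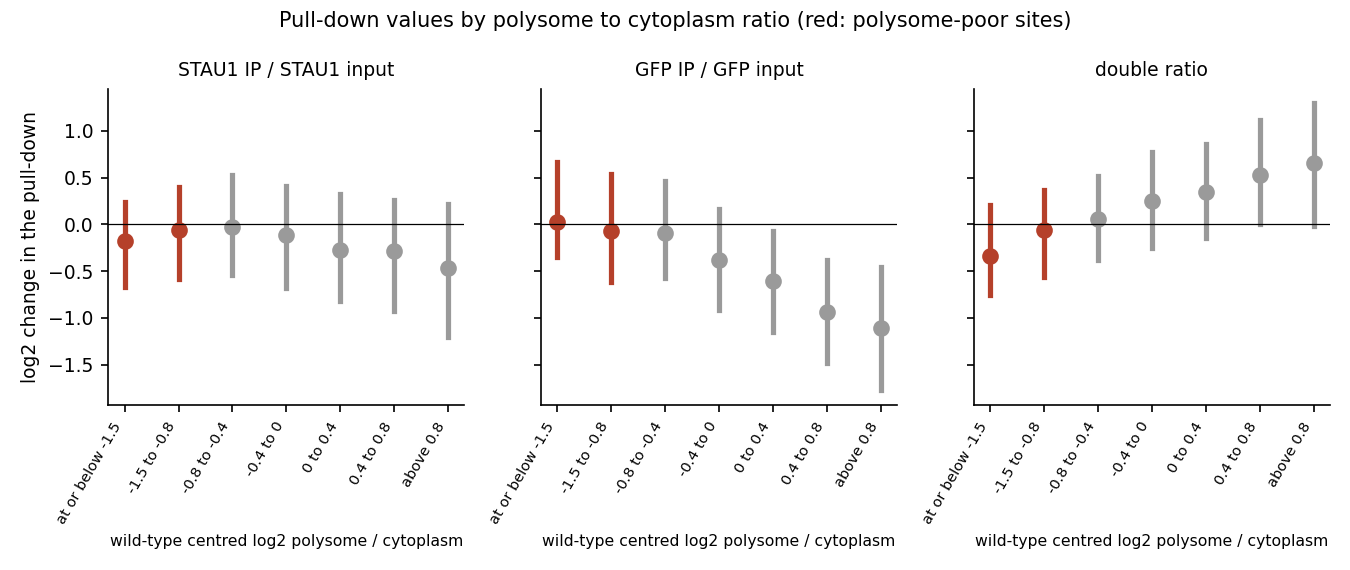
Log2 change in STAU1 IP over input, GFP IP over input and their double ratio, by band of the wild-type centred log2 ratio of polysome to cytoplasm, with the 2 bands of polysome-poor sites in red. Points are medians and bars run from the lower to the upper quartile. The GFP medians go from 0.03 in the lowest band to -1.11 in the highest, and the double ratio from -0.33 to 0.65.

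The largest double ratio was 3.47 ± 0.55 (SE, edgeR adjusted p = 0.00392) at chr8:48890483 (plus). It had 81.6 and 74.5 CPM in STAU1 IP and 16.5 and 45.6 CPM in STAU1 input, against 13.1 and 11.7 CPM in GFP IP and 56.7 and 53.6 CPM in GFP input. This site was higher in the STAU1 IP and lower in the GFP IP than in their inputs, with no overlap in either arm, and its fraction ratio was -1.08 in the knockout and -0.96 in wild type. At chr4:2939841, described above, the double ratio was 2.82 (edgeR adjusted p = 0.000969).

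At chr1:19586620 (plus) it was 2.08 (edgeR adjusted p = 0.00446), with 425 and 290 CPM in STAU1 IP and 93.8 and 101 CPM in STAU1 input, against 64.3 and 83.8 CPM in GFP IP and 76.0 and 94.2 CPM in GFP input. Here the GFP libraries overlapped and the STAU1 libraries did not. At chr12:98944126 (plus) it was 2.00 (edgeR adjusted p = 0.00392), and at chr1:51738774 (plus) 1.78 (edgeR adjusted p = 0.0489), a call that was lost when either GFP IP, the first STAU1 IP or the first STAU1 input was left out.

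The lowest double ratio among the called sites was -2.23 ± 0.32 (SE, edgeR adjusted p = 0.00193) at chr5:149779856, the site with the highest GFP change. At chr9:100778222 (plus), the site with the highest knockout minus wild-type value among those with at least 100 reads in each library, it was -1.99 (edgeR adjusted p = 0.00251). STAU1 IP held 84.5 and 72.5 CPM there and STAU1 input 94.5 and 98.3 CPM, against 296 and 342 CPM in GFP IP and 93.5 and 103 CPM in GFP input. The GFP IP libraries were the high ones. At chr12:69663719 (plus) the double ratio was -1.81 (edgeR adjusted p = 0.00642), with 109 and 96.1 CPM in STAU1 IP and 124 and 123 CPM in STAU1 input, against 330 and 345 CPM in GFP IP and 95.3 and 138 CPM in GFP input. This site had the same pattern.

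The other named sites were low in the STAU1 IP. At chr16:2204804 (minus) the double ratio was -1.80 (edgeR adjusted p = 0.00830), with 58.6 and 42.5 CPM in STAU1 IP and 144 and 148 CPM in STAU1 input, against 180 and 149 CPM in GFP IP and 137 and 137 CPM in GFP input. At chr7:10973084 it was -1.88 (edgeR adjusted p = 0.0241). That call was lost when the first GFP IP, the first GFP input or the second STAU1 IP was left out.

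**Figure D5:**
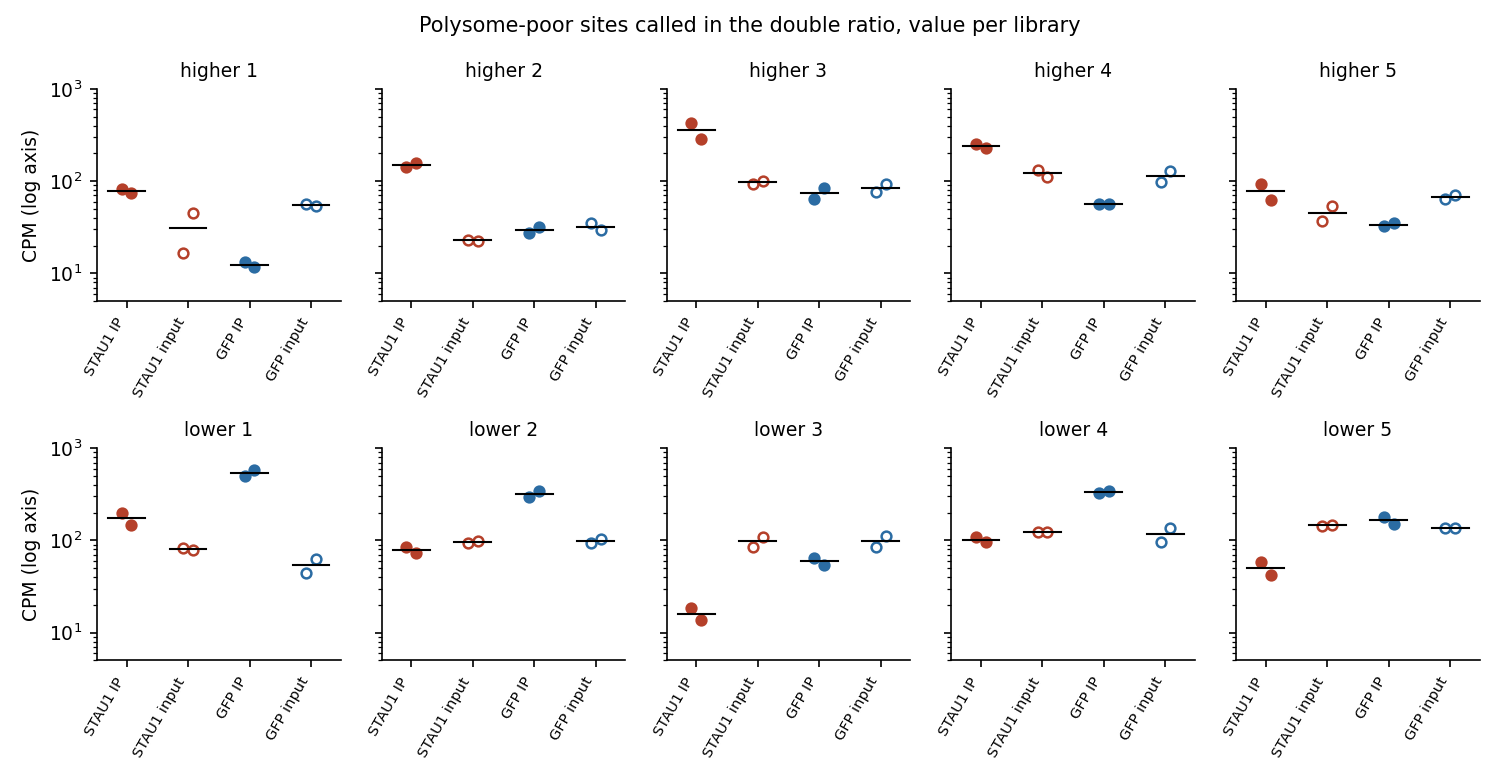
CPM per library, on a log axis, of the 5 polysome-poor sites with the highest and the 5 with the lowest double ratio among those called, in order of size (higher 1 to 5 and lower 1 to 5). Filled points are IP libraries, open points are inputs, red is STAU1, blue is GFP, and bars are means of 2 replicates. In lower 1, 2, 4 and 5 the GFP IP points stand highest, in lower 5 by a small margin, and in higher 1 to 4 the STAU1 IP points do.

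The sites lowest in wild type went both ways in the pull-downs. Of these 10, chr17:80036215 (minus) and chr17:57772128 (plus) were called higher in both pull-downs, with log2 changes of 0.78 and 0.73 for STAU1 and 1.23 and 1.11 for GFP. At chr5:127593602 both were called lower, with -0.74 for STAU1 and -0.84 for GFP, from 269 and 235 CPM in STAU1 IP, against 363 and 478 CPM in STAU1 input, and 243 and 264 CPM in GFP IP, against 413 and 494 CPM in GFP input. At chr15:75867352 both were called lower as well, with -1.82 and -1.68, from few reads. STAU1 IP held 11.3 and 19.6 CPM there, against 36.2 and 72.5 CPM in STAU1 input. GFP IP held 12 and 36 reads, 8.29 and 26.2 CPM, against 53.7 and 56.1 CPM in GFP input. The site's centred log2 of total lysate over knockout cytoplasm was -4.23. Called lower for STAU1 and not called for GFP were chr11:61732035 (minus) at -1.05 and chr14:94517269 (minus) at -1.18, and the first of these was also called lower in the double ratio at -1.39 (edgeR adjusted p = 0.0326). The other 4 were called in neither pull-down.

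Of the 10 most abundant sites, those called were called lower. At chr3:23961042 STAU1 IP held 924 and 781 CPM, against 2087 and 2231 CPM in STAU1 input, a log2 change of -1.34, and the GFP change was -1.27. At chr12:125396194 (minus) the changes were -0.97 for STAU1 and -1.13 for GFP, both called. At chr18:43664114 (minus) the GFP change of -0.62 was called and the STAU1 change of -0.54 was not. The site at chr6:30692353 (plus) was not tested in the pull-downs.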

How the data were processed

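The sites, rules and lists used here were chosen with earlier results of these data known. The submitters' processing notes name STAR and hg19, without versions or settings. The authors deposited unscaled counts of reads at each poly(A) site cluster, 1 column per library, in a fraction table and a pull-down table. Their clustering steps are not given in the sources used here. All columns of per-sample values were used. Fractions were scaled to library totals (RPM), sites were compared within 4 classes of expression, and no test was made, with 1 library per group. The whole pull-down table went through edgeR 4.0.16 under R 4.3.3 (quasi-likelihood test, TMM, filterByExpr, 4 groups over 8 libraries, Benjamini-Hochberg over 33744 sites, threshold 0.05), and the code was checked on simulated data. DESeq2 1.42.0 was an alternative. The pull-down depth of 1245270 to 9655646 reads limits low sites, and intervals cover counting error only. Named sites were the 10 lowest in wild type, the 10 with the most reads, the 5 highest and 5 lowest knockout minus wild-type values with 100 reads in each library, up to 5 called in each direction of each contrast, the 3 on each side of the threshold and the 5 widest gaps to a neighbour. Gene lists could not be applied, since no annotation of hg19 was used here.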

Additional observations from a re-analysis of the deposited data

Results flagged for a closer look

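These 10 polysome-poor sites had a different change in the STAU1 and GFP pull-downs by the test of the difference itself, edgeR's double ratio over 33744 sites, with 2 replicates in each of the 4 groups. The log2 double ratio was 3.47 at chr8:48890483, 2.82 at chr4:2939841, 2.08 at chr1:19586620, 2.00 at chr12:98944126 and 1.78 at chr1:51738774. It was -2.23 at chr5:149779856, -1.99 at chr9:100778222, -1.88 at chr7:10973084, -1.81 at chr12:69663719 and -1.80 at chr16:2204804.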

How the results depend on the processing

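The number of polysome-poor sites was 788 with at least 20 reads in each fraction library, 207 with 100, 643 at a threshold of -0.6 and 230 at -1.0. Under these the number also at or below that threshold in the knockout was 381, 122, 349 and 125, and the median knockout ratio was -0.78 with 20 reads, -0.67 at -0.6 and -1.04 at -1.0. Knockout minus wild type was 0.31 with 20 reads and 0.21 with 100. With 20 reads 73 neighbours were themselves polysome-poor. Library totals gave 65 sites higher for STAU1, 105 higher and 20 lower for GFP, 21 lower for the double ratio, and medians of 0.066, 0.26 and -0.26. No filter on low counts gave 15 higher for STAU1, 24 higher and 79 lower for GFP, 10 higher and 6 lower for the double ratio, and medians of -0.30, -0.48 and 0.14. DESeq2 gave 66 higher for STAU1, 101 higher for GFP, 17 higher and 58 lower for the double ratio, and medians of 0.11 for GFP and -0.215 for the double ratio. DESeq2's size factors in edgeR gave 21 lower for the double ratio and medians of 0.11 and -0.22. Medians of single contrasts thus moved with the scaling, while the gap to other sites stayed near 0.11, 0.49 and -0.40, a measure chosen after seeing the data, as were matches at the same position. Leaving out each library gave 17 to 46 higher and 28 to 46 lower for STAU1, 29 to 63 higher and 20 to 61 lower for GFP, and 4 to 23 higher and 6 to 22 lower for the double ratio. The medians then ran from -0.27 to 0.053, from -0.25 to 0.056 and from -0.16 to 0.11, and the gaps from 0.075 to 0.18, from 0.41 to 0.61 and from -0.52 to -0.34. Deviations of libraries by replicate number had correlations between groups from -0.191 to 0.101. Whether libraries with the same number share a culture or batch is not given by the labels and was not tested. With a replicate block in edgeR, 22 were called lower for the double ratio, against 13 without it. The cause of these changes was not tested. No value listed among the highest or lowest called sites of a contrast changed sign in that contrast, and other named values were not checked.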
